A study of Mus musculus with 3 samples.

Results

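The synovial culture kept with CTLA-4-Ig and the one kept with vehicle gave nearly the same expression profile. Of 52 gene lists, chosen with earlier results of these data known, the interferon-induced genes had the lowest median ratio of CTLA-4-Ig to vehicle. The proteoglycans, a small part of another list, lay lower still. On the hIgG array the interferon-induced genes lay above vehicle, by more than they lay below it on CTLA-4-Ig. The CTLA-4-Ig and vehicle arrays are compared here over every gene with a signal on both. These are 15822 of the 19316 genes that have a named probe. Each gene is described by the log2 ratio of its normalized signals, CTLA-4-Ig over vehicle, relative to the median ratio of all genes, which was 0.11. Few bright genes were more than 1.5-fold apart, and the co-stimulatory genes Cd80, Cd86 and Cd274 lay close to the rest. The bright gene farthest from vehicle was Gabbr1, a receptor subunit, at 2.18-fold above it, but the scanner's background reading beside its spot was not raised.

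The CTLA-4-Ig used was abatacept, a drug that joins the outer part of CTLA-4 to a modified Fc part of human IgG. CTLA-4 is a receptor of T cells that binds CD80 (B7.1) and CD86 on antigen-presenting cells and so withholds both from CD28, the receptor through which they co-stimulate T cells. Fibroblast-like synoviocytes (FLSs) line the joint, make its lubricant and matrix, and in arthritis grow with macrophages into the pannus that invades cartilage and bone.

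The cells came from D1BC mice, which are DBA/1 mice that carry murine B7.1 under the promoter and enhancer of rat type II collagen, so that chondrocytes and synovial cells express it. All 3 conditions share this transgene and a chronic arthritis induced with a low dose of bovine type II collagen. Cells isolated from the pannus, described as a mix of CD45- FLSs and CD45+ macrophages and labelled as primary FLSs of inflamed joints, received abatacept, human IgG (hIgG) or vehicle (medium with serum) for 48 h. The titles give a dose of 100 µg for both proteins, the methods give it per ml, and the protocol in the labels writes mg in place of µg. RNA of each condition went to 1 array, and the sources used here do not say if 1 mouse, several or a pool of mice gave the cells of the 3 cultures. No difference therefore has a replicate check, no p-value can be given, and a ratio holds any difference between cultures or arrays as well as the treatment. The hIgG array serves only to show which of the arrays stands apart.

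Both cell types described for the culture, FLSs and macrophages, were present by their markers. Over 27 detected macrophage markers the summed signal was 56660 with CTLA-4-Ig, 55470 with hIgG and 49440 with vehicle, and over 23 detected fibroblast markers it was 45560, 41880 and 43840. The macrophage sum was lowest on vehicle, and most of it came from Lyz2, the lysozyme of macrophages, at 32020, 28780 and 27290. The label of primary FLSs thus names only part of the mixture. Markers of T and NK cells summed to 227.2, 212.4 and 203.7, with Cd3e not detected on any of the arrays. In bulk RNA, fewer cells of a type and less RNA per cell cannot be told apart.

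The ratios were narrowly spread and varied with signal and with place on the array. The standard deviation of the log2 ratio was 0.28 over all 15822 genes and 0.19 over the 8306 bright genes, whose mean signal reached 25, the value to which each array's median was set. It depended on signal: 0.51 for genes up to a mean signal of 2, 0.41 from 2 to 5, 0.28 from 5 to 10, and 0.17 above 1000. Dim genes therefore reached a given fold far more often, and 24.2% of those up to a signal of 2 were 1.5-fold apart against 0.376% of those above 1000.

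The ratio also followed the place of the spot. The array has 24 blocks of 11 rows, and from the first to the last eighth of their 104 columns the median relative log2 ratio went from -0.15 to 0.12, with the last eighth above the first in 24 of 24 blocks. The first block as a whole had a median of 0.24. When the median of the neighbouring spots was subtracted (8 rows and 8 columns each way, a step chosen after the data were seen), 40.4% of the variance among bright genes went with it, and the standard deviation went from 0.19 to 0.15. For hIgG over vehicle the same step removed 14% and left 0.16. That comparison, which shares the vehicle array, ran the same way across the columns but less far, from -0.04 to 0.02. Its last eighth lay above the first in 23 of 24 blocks. The main results are therefore given both relative to the all-gene median and position-centred, and others position-centred where so marked. What caused the pattern on the surface was not tested.

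**Figure D1:**
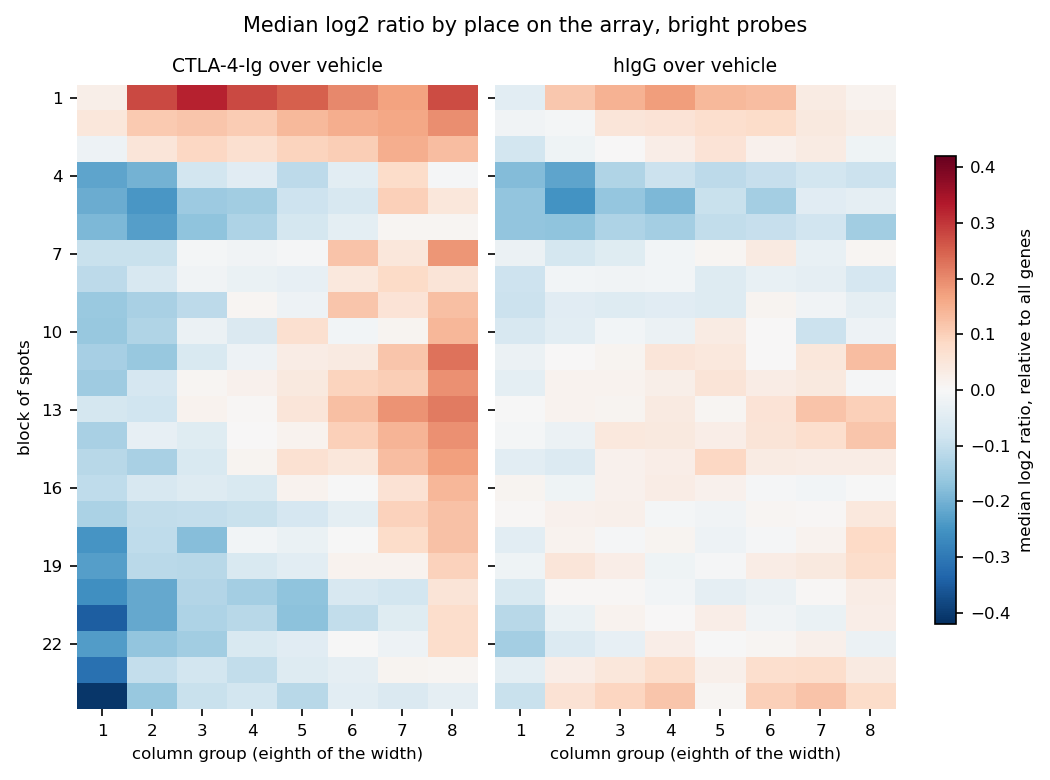
Median relative log2 ratio of bright probes by block (rows) and by eighth of the array's width (columns), for CTLA-4-Ig over vehicle and hIgG over vehicle. Red is higher and blue lower than the all-gene median. For CTLA-4-Ig over vehicle the cells run from -0.41 to 0.32, with low values on the left and high values at the top and right.

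Few bright genes were far apart. Relative to the all-gene median, 17 of the 8306 lay 1.5-fold or more above vehicle (0.205%) and 35 lay that far below it (0.421%). Position-centred, 7 were higher (0.0843%) and 12 lower (0.144%), of which 6 and 10 were also past 1.5-fold before centring. At 2-fold, 1 gene was higher on either scale, Gabbr1, and 0 were lower. Position bears on which genes are counted: 17 of the 35 lower genes lay where the neighbouring spots had a median of -0.20 or less, which held for 5.2% of bright genes, and 5 of the 17 higher genes lay where it was 0.20 or more, which held for 3.4%. Between hIgG and vehicle, which share the vehicle array with this comparison, 22 bright genes were higher (0.268%) and 32 lower (0.390%). Position-centred, hIgG lay 1.5-fold or more above vehicle in 18 of 8195 bright genes and below it in 30. Centring thus lowered the counts far more for CTLA-4-Ig than for hIgG. Among all detected genes, dim ones included, 406 lay 1.5-fold or more above (2.57%) and 282 below (1.78%).

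**Figure D2:**
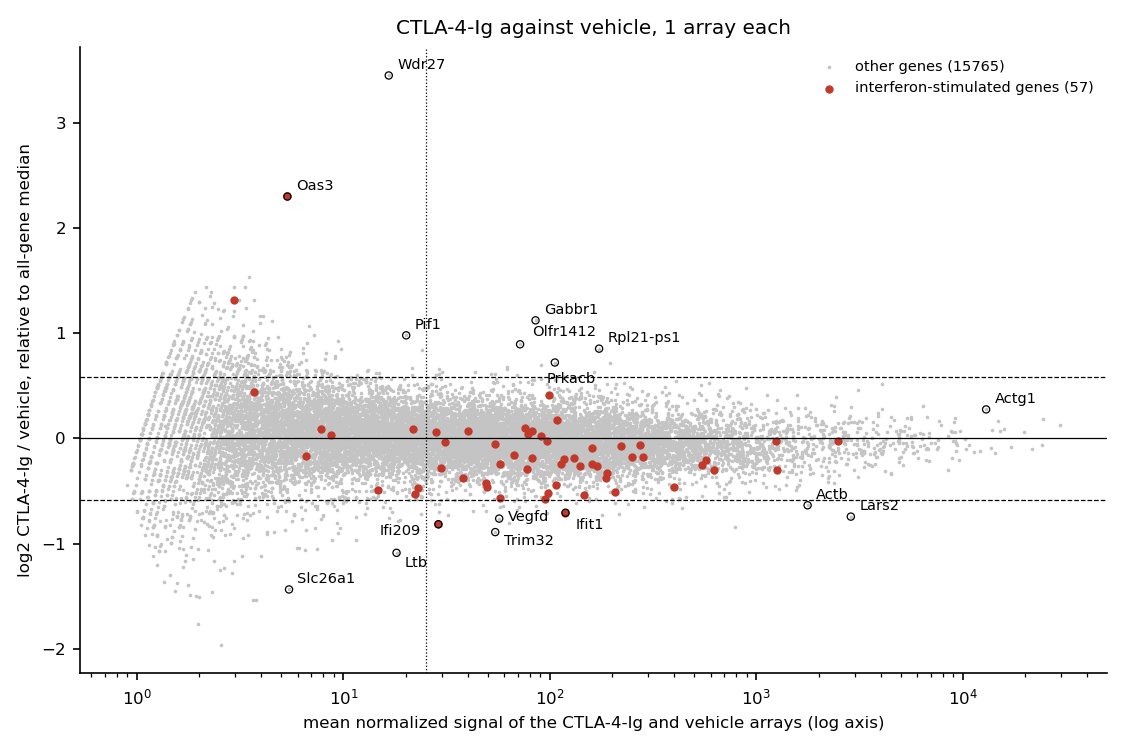
The ratio CTLA-4-Ig/vehicle (log2, relative to the all-gene median) against the mean normalized signal of both arrays (log axis). Each point is 1 of 15822 genes, red for the 57 interferon-stimulated genes detected. Dashed lines mark 1.5-fold, and the dotted line marks a signal of 25. The spread widens at low signal, and most red points lie below 0.

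Cells detect interferon through surface receptors whose kinases activate transcription factors, and these bind short promoter elements and switch on a shared set of genes. The set holds sensors of viral nucleic acid, effectors that block viral growth, GTPases of the GBP and IRG families that attack intracellular microbes, and PYHIN proteins that bind DNA. Of 61 such genes listed, 57 were detected on both arrays. Their median lay 0.19 below that of all genes, both relative (-0.19) and position-centred (-0.19), and 43 of the 57 were below the all-gene median before centring and 47 after it, where by construction as many of all detected genes lie below the median as above it. Of 47 bright members 41 were below it (median -0.19), against 58.7% of all bright genes, whose own median was -0.03 (before centring 39 of the 47, against 57.0%). No other of the 52 lists lay as low, and the next, heat shock proteins, had a position-centred median of -0.13.

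The distance from the median was small for most members. Only 2 of the 57 members were 1.5-fold lower, Ifi209 and Ifit1, and 2 were 1.5-fold higher, Oas3 and Tgtp1, against 1.78% of all detected genes lower and 2.57% higher, so these counts say little about the set. The roles differed in their medians. Of 24 effectors 20 lay below the all-gene median before centring and 22 after it, with a position-centred median of -0.25. Of 11 GTPases 9 lay below it on either scale (-0.14 position-centred). Of 7 PYHIN genes 4 did before centring and 6 after (-0.19), of 10 sensors 7 and 6 (-0.10), and of 5 transcription factors 3 and 4 (-0.09).

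Among the effectors, Ifit1, which binds viral RNA that lacks the cap methylation of the host, had a signal of 94.6 with CTLA-4-Ig, 172.9 with hIgG and 143.4 with vehicle. The CTLA-4-Ig array was the lowest of the 3, at a relative log2 ratio of -0.71 to vehicle and -0.68 position-centred. Its relative Ifit3 read 83.7, 142.2 and 111.3, again lowest on CTLA-4-Ig (-0.52 and -0.58). Cmpk2, a mitochondrial nucleotide kinase, read 48.1, 90.4 and 66.4 (-0.57 and -0.54). Mx1, a GTPase that blocks influenza virus, was dimmer at 12.7, 20 and 16.6 (-0.49 and -0.53). Isg15, a ubiquitin-like modifier, had 175.0, 306.6 and 204.6 (-0.33 and -0.47). Rsad2 (viperin) had 178.3, 292.7 and 235.0 (-0.50 and -0.43). In each of these genes hIgG was highest, vehicle between and CTLA-4-Ig lowest. They were picked from the lower members, and hIgG lay above vehicle in 56 of the 57 members position-centred, so the choice nearly fixed this order. Before centring 14 of the 57 lay above the all-gene median for CTLA-4-Ig over vehicle, among them Parp9 (0.18) and Dtx3l (0.10). At the other end of the role, Ifitm3, which keeps viruses from leaving endosomes, read 2568, 2841 and 2423 and lay at 0.05 position-centred.

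Among the sensors, Ifih1 (MDA5, which detects long double-stranded RNA) had 43.5 with CTLA-4-Ig, 79.3 with hIgG and 55.7 with vehicle (-0.46 relative, -0.39 position-centred). Oas3 went the other way. This synthetase of the messenger that activates RNase L had 9.01, 2.70 and 1.70, which is 4.92-fold above vehicle relative to the all-gene median (2.30, and 2.39 position-centred). It was highest on CTLA-4-Ig, but near the detection limit on the other arrays, while its relatives Oas1a (276.7, 403.9 and 268.0, position-centred 0.05) and Oas2 (72.5, 95.5 and 82.3, -0.19) lay closer to vehicle. The GTPase Tgtp1, also dim, had 4.29, 2.90 and 1.60 (position-centred 1.26).

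Of the GTPases, Iigp1, an IRG protein that breaks parasite vacuoles, read 79.4, 143.9 and 110.1 (-0.58 and -0.50), and Ifi47 read 125.3, 217.6 and 168.5 (-0.53 and -0.43). Both were lowest on CTLA-4-Ig. Of the GBP family, Gbp2 (-0.19 relative), Gbp3 (-0.05) and Gbp5 (-0.03) lay closer to the all-gene median. Ifi209, of the PYHIN family, had the lowest ratio in the whole set: 21.9 with CTLA-4-Ig, 38.4 with hIgG and 35.8 with vehicle (-0.82 and -0.75). Its relatives Ifi204 (580.5, 748.6 and 663.0, position-centred -0.33) and Ifi202b (1170, 1416 and 1341, -0.33) were brighter and closer to the other arrays. Ifi205, the highest of the family, lay on the other side, at 0.53 position-centred. Among the factors that drive the set, Irf1 had 168.8, 219.0 and 203.0 (-0.26 position-centred), Irf7 82.7, 105.9 and 74.6 (-0.09) and Irf8 116.0, 105.6 and 81.0 (0.25). Irf8, a factor of myeloid cells, was the only one of the 5 factors detected that lay above the median once centred. Before centring Irf7 lay above it too, at 0.04.

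The Cxcr3 ligands, chemokines that interferon induces and that draw T cells, were listed with the chemokines but lay the same way. Cxcl10 had 69.7 with CTLA-4-Ig, 195.9 with hIgG and 101.2 with vehicle (-0.64 relative, -0.60 position-centred), Cxcl11 had 16.4, 43.5 and 20.3 (-0.22 position-centred) and Cxcl9 had 6.03, 13.4 and 7.20 (-0.28). In all of them hIgG stood highest by far, and CTLA-4-Ig was the lowest. The interferons themselves were dim or close in level: Ifnb1 read 3.46, 4.10 and 3.30, Ifng 3.72, 2.6 and 2.6, and Ifna1 63.4, 62.3 and 58.9, the last with a position-centred ratio of 0.03. Ifna2 was not detected on any array. The receptor chains Ifnar1 and Ifngr1 both lay at 0.04 position-centred.

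The hIgG array has to be seen beside this set. For hIgG over vehicle, which uses the same vehicle array, the position-centred median of the 57 members was 0.30, so the CTLA-4-Ig and hIgG arrays lay on opposite sides of vehicle. Between CTLA-4-Ig and hIgG it was -0.48.

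**Figure D3:**
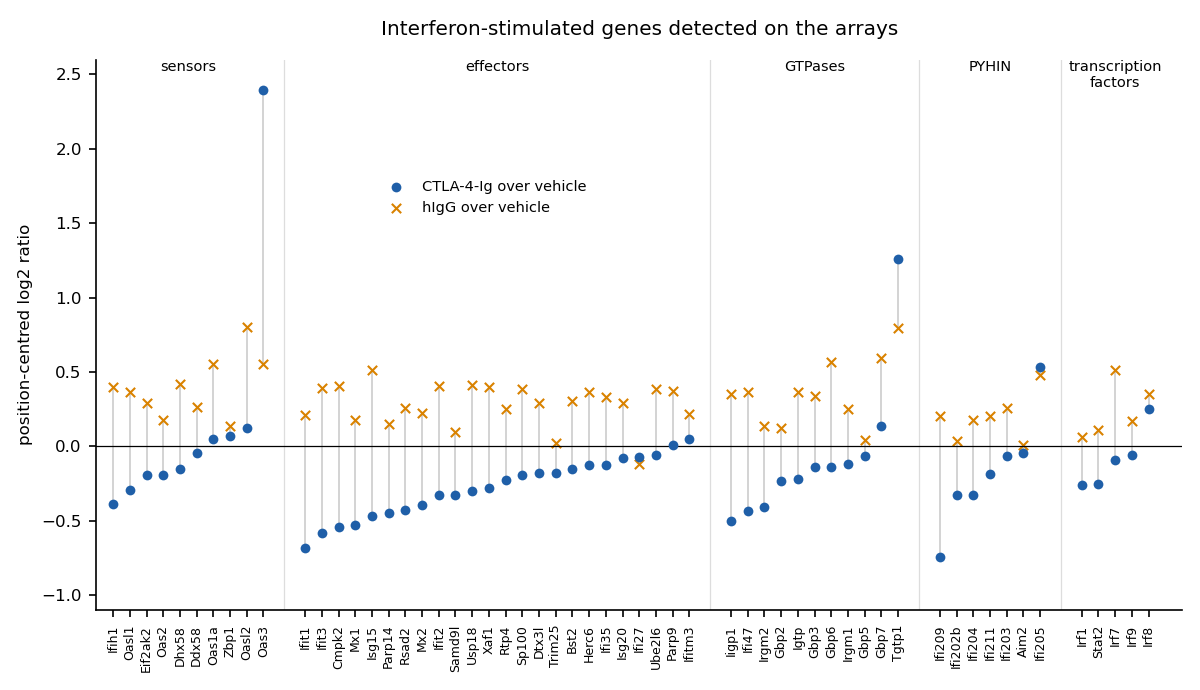
Position-centred log2 ratio of the 57 interferon-stimulated genes detected, grouped by role, for CTLA-4-Ig over vehicle (blue points) and hIgG over vehicle (orange crosses); each gene's pair is joined by a line, and the pair shares 1 vehicle array. For CTLA-4-Ig 47 of 57 points lie below 0, while Oas3 and Tgtp1 stand far above it.

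The promoters of the set often held an element through which interferon acts. The members were listed for their response to interferon, so this describes the list and not these arrays. The interferon-stimulated response element (ISRE) was searched as GAAA, 2 bases of any kind and GAAA again, on both strands of RefSeq promoters of GRCm38.p6, each with 250 bases before and 50 after a gene's start. Of the 57 genes 44 had a promoter in the table, with 53 starts, of which 23 (43.4%) held the element, against 3.44% of all 32851 promoters. By role it was in 8 of 10 promoters of the GTPases, 5 of 7 of the sensors, 6 of 21 of the effectors, 3 of 7 of the PYHIN genes and 1 of 8 of the transcription factors. The order of these shares was not that of the ratios, since the effectors, with few matches, had the lowest median. A second element of the interferon response, GAS (TTC, 3 bases of any kind and GAA), was in 15 of the 53 (28.3%), against 8.30% of all promoters.

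The promoters of the lower effectors Ifit1 and Ifit3, of Cxcl10 and of Oas3, which lay on the other side, are printed 5' to 3' on the gene's strand to show that the element occurs in genes of both directions. Not every lower gene holds it: the promoters of Ifi209, the lowest member, and of Cmpk2 have no match. Capitals mark each match to the ISRE. They are chr19:34640639-34640938 (plus strand), chr19:34583279-34583578 (plus), chr5:92348840-92349139 (minus) and chr5:120777610-120777909 (minus) of GRCm38.p6.
Ifit1: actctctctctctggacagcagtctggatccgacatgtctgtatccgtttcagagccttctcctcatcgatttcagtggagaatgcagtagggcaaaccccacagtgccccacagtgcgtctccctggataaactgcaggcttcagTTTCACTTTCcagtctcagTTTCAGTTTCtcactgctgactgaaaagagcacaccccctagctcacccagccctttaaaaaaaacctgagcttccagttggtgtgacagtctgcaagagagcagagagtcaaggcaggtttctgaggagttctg
Ifit3: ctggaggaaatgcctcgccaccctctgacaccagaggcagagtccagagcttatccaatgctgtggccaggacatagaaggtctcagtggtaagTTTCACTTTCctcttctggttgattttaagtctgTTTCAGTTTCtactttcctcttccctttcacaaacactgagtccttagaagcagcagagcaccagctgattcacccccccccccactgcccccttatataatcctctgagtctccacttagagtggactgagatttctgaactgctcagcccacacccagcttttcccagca
Cxcl10: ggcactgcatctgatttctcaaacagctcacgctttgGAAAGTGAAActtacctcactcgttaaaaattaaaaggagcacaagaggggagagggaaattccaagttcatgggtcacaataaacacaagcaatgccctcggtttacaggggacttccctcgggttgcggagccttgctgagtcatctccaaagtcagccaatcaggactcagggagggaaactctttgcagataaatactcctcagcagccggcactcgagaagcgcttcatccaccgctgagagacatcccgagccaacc
Oas3: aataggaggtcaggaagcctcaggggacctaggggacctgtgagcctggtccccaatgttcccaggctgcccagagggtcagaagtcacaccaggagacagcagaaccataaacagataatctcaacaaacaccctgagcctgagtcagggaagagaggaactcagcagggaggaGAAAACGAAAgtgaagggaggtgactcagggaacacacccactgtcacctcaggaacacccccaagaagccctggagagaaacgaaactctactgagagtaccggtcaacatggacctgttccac
Ifit1 and Ifit3 each hold 2 matches, and Cxcl10 and Oas3 hold 1. Counted from the gene's start, the match lies at -75 in Oas3 and farther out, at -213, in Cxcl10.

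Outside this set, the genes with the highest ratios had no common function. Gabbr1, a subunit of the metabotropic receptor for the transmitter GABA, read 119.4 with CTLA-4-Ig, 55.3 with hIgG and 51.0 with vehicle. Only CTLA-4-Ig was high, 2.18-fold above vehicle relative to the all-gene median (1.12, and 1.246 position-centred). The scanner gives a second reading beside each spot, a background median, which on bright spots was 93.6% to 96.6% of the spot itself and so follows the probe. For Gabbr1 it did not follow: the spot read 251.5, 138.7 and 136.3, and the background column 91.6, 92.4 and 123.5. The partner subunit Gabbr2 read 13.6, 13.7 and 12.5.

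Olfr1412, an olfactory receptor gene, had 95.6 with CTLA-4-Ig, 45.4 with hIgG and 47.8 with vehicle (0.89 relative, 0.93 position-centred). It too was high on CTLA-4-Ig alone. As a class the olfactory receptors were dim, with a median signal of 4.85 over the 479 detected of 1014. Rpl21-ps1, a pseudogene of ribosomal protein L21, had 228.6, 147.7 and 117.6 (0.85 and 0.76), and how far RNA of the parent gene Rpl21, which lay at 0.30 position-centred, binds this probe was not tested. Smpd2, a neutral sphingomyelinase, had 78.3, 51.1 and 45.3 (0.68 and 0.67), with the background column at 182.4, 131.3 and 127.9, in step with the spots.

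Other high genes were more evenly graded over the arrays. Prkacb, a catalytic subunit of the cAMP-dependent kinase, read 135.2 with CTLA-4-Ig, 110.8 with hIgG and 76.2 with vehicle (0.72 and 0.68), and Glipr1l2, of the CAP family, read 249.7, 185.0 and 141.0 (0.72 and 0.70). In both, hIgG lay between the other arrays. The order is not particular to them: of the 15 highest bright genes before centring, all but Olfr1412 had hIgG in between and vehicle lowest. Position-centred, Prkacb lay 0.47 above vehicle on hIgG and 0.20 above hIgG on CTLA-4-Ig, and Glipr1l2 lay 0.29 and 0.39 above. The background column followed for Prkacb (291.4, 240.2 and 183.2) and not for Glipr1l2 (175.2, 146.9 and 195.9). The predicted gene Gm16490 had 119.4, 80.6 and 78.9 and passed 1.5-fold only once centred (0.60).

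The remaining genes among the 15 highest before centring had lower ratios after it. Mr1, which presents bacterial vitamin metabolites to T cells, read 115.2, 81.8 and 66.0 and went from 0.70 to 0.38, because its neighbours had a median of 0.30. Cdc45, a part of the replicative helicase, went from 0.63 to 0.33, the homeobox gene Meox1 from 0.64 to 0.32 and Tmem181b-ps from 0.61 to 0.31. Sucla2, Acr, D5Ertd615e, Gm14470 and Zfp933 kept 0.43 to 0.58. Those that entered the 15 highest with centring were Neu1, the lysosomal sialidase (148.3, 133.4 and 104.9, 0.52 position-centred), and Gm15361, Tmem86b, Mog, Duox1 and Trim41, at 0.50 to 0.55.

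Among dim genes, with a mean signal of 5 to 25, Wdr27, which encodes a WD-repeat protein, was far above all others: 30.6 with CTLA-4-Ig, 2.30 with hIgG and 2.6 with vehicle. This is 10.9-fold relative to the all-gene median (3.45, and 3.70 position-centred), the highest ratio of any detected gene on either scale. Its spot read 101.1 against 50.4 and 49.9, where blank spots averaged 49.4, 46.5 and 45.2, and its background column followed (92.1, 47.0 and 47.0). Pif1, a DNA helicase, read 27.4, 13.1 and 12.9 (1.07 position-centred), with a background column that did not follow (58.5, 60.4 and 59.1). Ifne, the interferon of the reproductive tract epithelium, read 8.41, 4.6 and 4.30 (1.249). Krtap5-1, Tarm1 and Plg lay at 0.71 to 0.91 position-centred, but hIgG also lay above vehicle for them, at 0.49 to 0.66.

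The lower genes included abundant transcripts. Actb, cytoplasmic beta-actin, read 1449 with CTLA-4-Ig, 1793 with hIgG and 2091 with vehicle, with a relative log2 ratio of -0.64 that grew to -0.81 position-centred, the lowest of all bright genes. Its close paralog Actg1 went the other way, with 14670, 12290 and 11260 (0.28, and 0.05 position-centred). How far their labelled RNAs bind each other's probes was not tested. Other genes often used as references stayed closer: Gapdh had 4107, 4013 and 4137 (-0.02 position-centred) and Hprt 1379, 1640 and 1595 (-0.23). Lars2, the leucyl-tRNA synthetase of mitochondria, read 2244, 3358 and 3490 (-0.74 and -0.76), low on CTLA-4-Ig alone.

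Vegfd, a growth factor for lymphatic vessels, read 44.1 with CTLA-4-Ig, 50.3 with hIgG and 69.5 with vehicle (-0.76 and -0.70). Here both protein-treated arrays were below vehicle, with hIgG over vehicle at -0.52. Fat1, an atypical cadherin, was alike, with 197.1, 160.8 and 281.9 (-0.62 and -0.61) and hIgG the lowest. Capn5, a calpain, read 39.4, 46.2 and 58.9 (-0.69 and -0.59). By contrast Snapc1, a subunit of the complex that transcribes small nuclear RNAs, was low on CTLA-4-Ig alone, with 77.2, 121.4 and 117.5 (-0.71 and -0.67), as were Abcb4, a phospholipid transporter (25.3, 38.5 and 39.0, -0.73 and -0.63), the basophil protease gene Mcpt8 (63.7, 84.6 and 86.9, -0.55 and -0.69) and Gbe1, the glycogen branching enzyme (223.5, 293.9 and 291.4, -0.49 and -0.61). In the background column all 12 genes that were 1.5-fold lower after centring lay below the median of bright genes, as did all 35 that were lower before it. Of the 1.5-fold higher genes, 15 of 17 before centring and 5 of 7 after lay above that median. Of the 47 bright interferon-stimulated genes 33 lay below it (70.2%), and Ifit3 was among those above (0.14). The column shares the spot's place and light, so this is no independent reading.

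Trim32, an E3 ubiquitin ligase, had the lowest ratio of bright genes before centring, with 39.9, 55.3 and 68.8 (-0.89), but its neighbours had a median of -0.37 and it lay at -0.53 after. Clec4a3, a lectin receptor of myeloid cells, read 48.6, 71.4 and 78.6 (-0.80 and -0.50), and Gm20091 589.1, 873.8 and 983.7 (-0.85 and -0.50). Rasl11a, Atm, Ly6g and AI854703 went from between -0.73 and -0.68 to between -0.35 and -0.31, so about as much of each ratio lay in the spots around them as in their own. B230219D22Rik kept -0.48. Lrp1, a receptor that takes up ligands by endocytosis, entered with centring at -0.53 (385.2, 476.1 and 527.7). Of the dim genes Ltb, the membrane anchor of the lymphotoxin heterotrimer, read 12.2, 11.1 and 24 (-1.0 position-centred), and Slc26a1, an anion exchanger, 3.10, 2.40 and 7.80 (-1.64). In both of these vehicle stood above the other arrays together. Olfr786, Mss51, BC049762, Cdc7, B4galt5, Ubqln2 and 6430628N08Rik, also dim, lay between -0.92 and -0.63 position-centred.

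**Figure D4:**
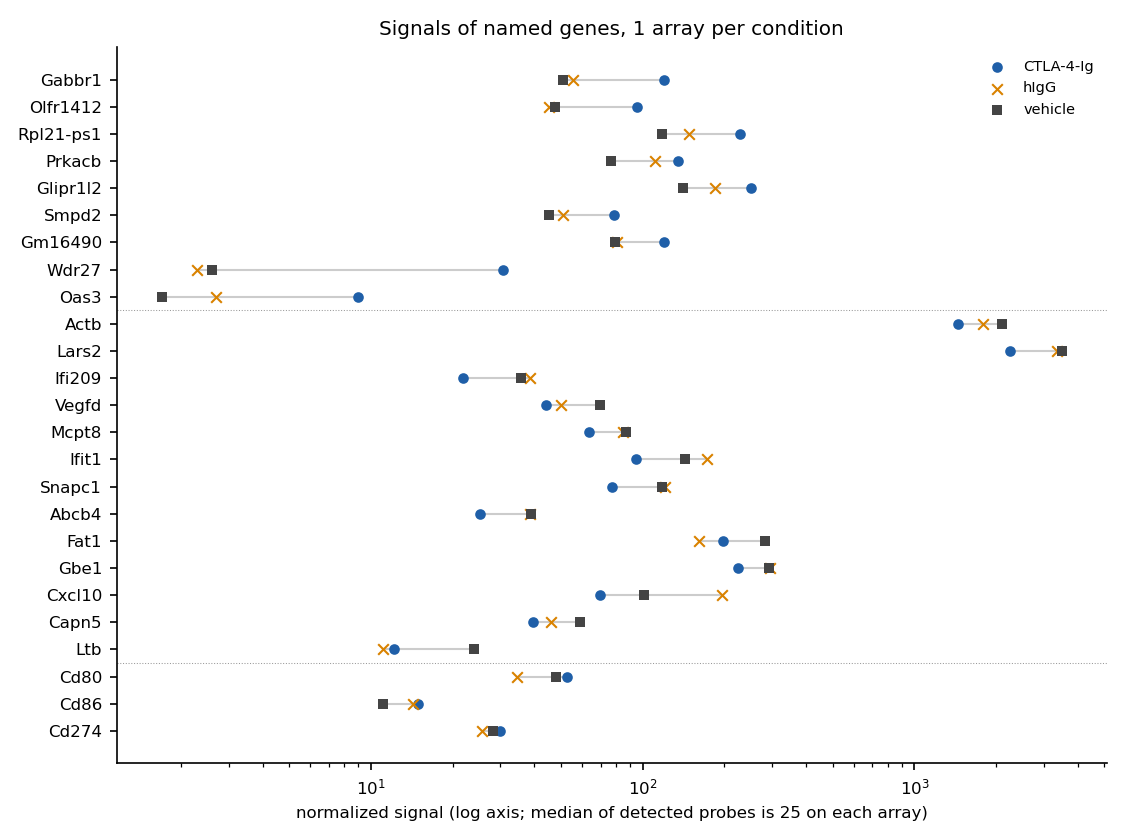
Normalized signal per array (log axis; CTLA-4-Ig, hIgG, vehicle) for genes higher on CTLA-4-Ig (top, Gabbr1 to Oas3), lower on it (middle, Actb to Ltb) and the ligands Cd80, Cd86 and Cd274 (bottom). Each symbol is 1 array, and the line spans the 3 signals. Gabbr1, Olfr1412, Wdr27 and Oas3 are high on CTLA-4-Ig alone, Vegfd, Fat1 and Ltb are high on vehicle alone, Cd80 is lowest on hIgG, and Cd86 and Cd274 lie closer together.

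The targets of CTLA-4-Ig showed little. Cd80, which these mice also carry as a transgene, had 52.7 with CTLA-4-Ig, 34.5 with hIgG and 48.0 with vehicle over 2 probes (0.03 relative, -0.17 position-centred). CTLA-4-Ig and vehicle were close, and hIgG was the one apart. Cd86, the other ligand of CTLA-4, had 14.9, 14.3 and 11.1 (0.32 and 0.23), and Cd274 (PD-L1), which can pair with CD80 on the same cell, had 29.8, 25.7 and 28.1 (-0.02 and -0.11). The signal-matched spread was 0.23 before centring and 0.19 after for genes from 10 to 25, so Cd86 was 1 to 2 such spreads out. Cd28, the receptor that CTLA-4 competes with, had 89, 57.8 and 77.3 (0.10), while Ctla4 itself was near the detection limit at 2.40, 1.30 and 1.30 (0.78 relative, 0.56 position-centred, at signals where the spread was 0.51 and 0.49 and 24.2% of genes were 1.5-fold apart). The drug is a protein and adds no RNA to the culture.

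Over the whole list of 24 detected co-stimulatory genes, 15 lay above the all-gene median and 9 below it before centring (median 0.06), and 13 and 11 after (0.05). Tnfsf4 (OX40 ligand) was the highest, at 3.42, 1.20 and 1.80 (0.82), and Cd276 (B7-H3) the lowest, at 20.2, 20.5 and 27.7 (-0.55). Genes that handle the Fc part of IgG, which both proteins bring to the cells, were closer still, with 5 of 15 above before centring (median -0.05) and 8 after (0.01), and none 1.5-fold apart. Fcgr1, the high-affinity receptor, read 234.8, 408.0 and 230.9, high on hIgG alone, while Fcgr3 read 1785, 1773 and 1654 and the neonatal receptor Fcgrt 316.0, 243.1 and 282.6. For 30 endocytosis genes the median was -0.08 before centring (11 above, 19 below) and -0.07 after (12 and 18). Dnm2 (dynamin) was lowest, at a dim 2.6, 2.10 and 3.60 (-0.77), and the endosomal tether Eea1 highest, at 30.1, 26.9 and 20.2 (0.47).

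The metalloproteases, which degrade cartilage matrix, lay where all genes did: of 27 enzymes and inhibitors 12 were above and 15 below before centring, and 11 and 16 after (median -0.04), and none was 1.5-fold apart. Mmp3 (stromelysin 1) read 1199 with CTLA-4-Ig, 1786 with hIgG and 1116 with vehicle (0.00 relative, 0.16 position-centred), and Mmp13 (collagenase 3) 534.6, 762.8 and 497.3 (-0.07 position-centred). In both, CTLA-4-Ig was near vehicle, and hIgG was higher. Mmp8 had 171.5, 150.8 and 134.4 (0.11 position-centred), Mmp12 1032, 890.3 and 968.3 (0.04), and the dim Mmp10 8.69, 4.40 and 6.10 (0.37) and Mmp9 3.06, 2.20 and 3.40 (-0.36). Il6, a cytokine that drives joint inflammation, had 40.9, 40.6 and 42.7 (-0.14), Tnf 20.6, 31.1 and 23.1 (-0.22) and Il1b 15.2, 14.4 and 16.2 (-0.02). Of 54 interleukins and receptors 28 lay above and 26 below before centring, and 30 and 24 after. The highest of them, Il20rb, was dim at 3.06, 2.10 and 1.20 (1.17).

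Matrix genes other than collagens leaned lower. Of 35 glycoproteins, proteoglycans and crosslinking enzymes 26 lay below the all-gene median before centring (median -0.08) and 28 after it (-0.11). The proteoglycans, which hold water and organize collagen fibrils, lay lowest, with 8 of 9 below on either scale. Their median was -0.34 before centring and -0.25 after, which is below that of the interferon-stimulated genes as a whole. Prelp read 121.5 with CTLA-4-Ig, 79.0 with hIgG and 155.3 with vehicle (-0.39), Ogn (osteoglycin) 144.1, 139.3 and 169.7 (-0.29), Lum (lumican) 958.5, 1054 and 1194 (-0.25) and Dcn (decorin), the exception, 1104, 1096 and 1007 (0.05). The highest array was vehicle for the first 3 of these, and for this role hIgG over vehicle had a median of -0.24, so both protein-treated arrays lay below vehicle. Dim Hspg2 (perlecan) was 1.5-fold lower (7.09, 7.5 and 11.5, -0.62). The 19 collagen chains lay at -0.01. Of the 23 fibroblast markers, 14 were below before centring (median -0.07) and 17 after (-0.09), with Vcam1 lowest (512.8, 588.1 and 611.5, -0.30) and Thy1 at -0.12.

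Macrophage genes lay on both sides of the median. Of 27 markers 15 lay above and 12 below before centring (median 0.01), and 11 and 16 after (-0.08). Adgre1 (F4/80) was highest at 589.1, 554.3 and 462.7 (0.41 position-centred), followed by the scavenger receptor Msr1 at 2635, 2714 and 1968 (0.34). Both were lowest on vehicle. Clec4a3, described above, was the lowest of the list. Cd14, the lipopolysaccharide co-receptor, was below at 1937, 2458 and 2158 (-0.16), and Ptprc (CD45) at 332.7, 375.9 and 345.1 (-0.21). Of 26 lysosomal genes 13 lay above before centring (median 0.01) and 18 after (0.08), led by Neu1 and Hexa (1842, 1474 and 1290, 0.36). Immediate early genes, which cells induce within minutes of a stimulus, leaned upward on both scales, with 19 of 30 above before centring (0.10) and 21 after (0.09). Of these Fos read 131.6, 109.0 and 88.0 (0.36) and Ier2 121.8, 99.1 and 87 (0.47).

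The other lists stayed within a narrow range. Of the 52 medians 47 lay between -0.10 and 0.10 position-centred. The 4 at or below -0.10 were the interferon-stimulated genes, heat shock proteins (10 of 13 below, and 8 before centring, when their median was -0.05), the matrix genes and the B and plasma cell markers, whose 9 detected members were mostly dim. The 1 above 0.10 was the GABA receptors, which rests on Gabbr1 and dim genes, with 5 of 12 detected. Of the heat shock genes Bag3 was lowest (92.8, 90 and 123.2, -0.40), while Hspa8 (9686, 8776 and 8601) lay at 0.42. Respiratory chain subunits (30 of 41 below, 26 before centring, median -0.08) and ribosomal proteins (28 of 38, 25 before centring, -0.08) were bright lists, and above a signal of 250 the median of all genes was itself -0.05 to -0.06. NF-kB subunits and feedback inhibitors changed most with position: their median went from -0.13 to -0.01 with centring.

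**Figure D5:**
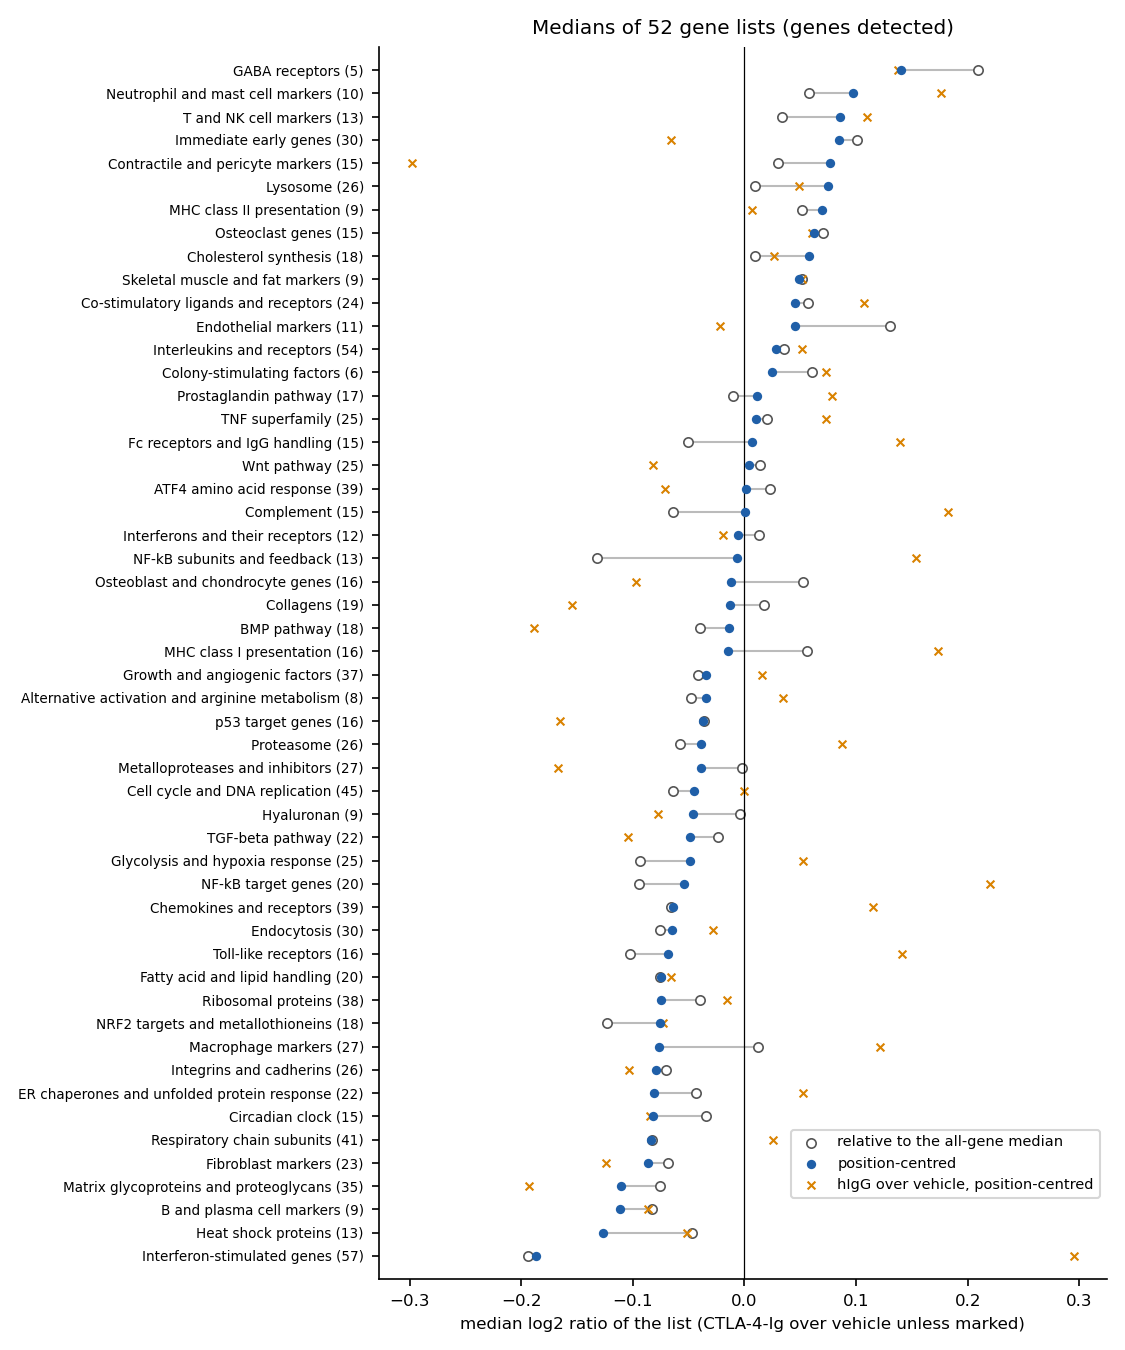
Median log2 ratio of 52 gene lists, with the number of genes detected in parentheses: CTLA-4-Ig over vehicle relative to the all-gene median (open circles) and position-centred (blue), and hIgG over vehicle position-centred (orange crosses). The interferon-stimulated genes lie lowest for CTLA-4-Ig over vehicle, at -0.19, and highest for hIgG over vehicle, at 0.30.

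Across the 8284 bright genes detected on all arrays, which array most often stood apart from both others depended on the fold. At 1.5-fold it was hIgG. CTLA-4-Ig lay 1.5-fold or more above both others in 2 genes and below both in 13 (0.181% either way), and 3 and 6 after centring (0.109%). For hIgG the counts were 18 and 11 (0.350%), and 17 and 13 after centring (0.362%). For vehicle they were 2 and 0 (0.0241%), and 1 and 0 after centring (0.0121%). At a lower fold of 5/4, CTLA-4-Ig stood apart most often before centring, with 58 genes above and 168 below both others against 76 and 108 for hIgG, and hIgG did after it, with 75 and 107 against 17 and 66. The 2 genes above both were Gabbr1 and Olfr1412, joined by Gm16490 after centring. The 6 below both after centring were Cxcl10, Ifi209, Ifit1, Lars2, Mcpt8 and Snapc1. Of these, Ifi209 and Ifit1 are on the interferon list, which had 47 members among the 8306 bright genes, and Cxcl10 is a chemokine that interferon induces. Position-centred, hIgG lay above vehicle in 56 of the 57 listed members. A low ratio to vehicle thus nearly fixed that such a gene lies below both arrays, which adds no further evidence.

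Genes with a signal on only 1 of the arrays were dim. There were 646 on CTLA-4-Ig and not on vehicle, with a median signal of 1.20, and 129 the other way, also with a median of 1.20. Of the 646, 3 had a signal of 5 or more, and the vehicle spot of the brightest, Zfp330 (309.3 on CTLA-4-Ig and 276.8 on hIgG), carried a bad flag, so it says nothing about expression. The others were Gpr63 at 6.42 and Gm553061 at 5.24. The CTLA-4-Ig array had the higher share of probes detected, 84.0% against 81.4% on vehicle.

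Within the pair of arrays, different probes of 1 gene give the only repeat of a measurement. For 253 genes with 2 bright probes the ratios of the 2 probes differed with a standard deviation of 0.28, and 0.23 position-centred, with a median difference of 0.16. The disagreement between probes of the same gene thus often exceeded 0.16, and it sets no size above which a single ratio is secure. A smaller position-centred ratio of a single bright gene lies well within it. Over all bright genes the position-centred ratio itself had a standard deviation of 0.15.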

How the data were processed

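Normalized signals were deposited as a matrix with 1 column for each of 3 arrays, and the scanner output of each array was also used. Per the methods and the labels, the authors labelled RNA with 1 dye (Cy5), hybridised it to a 24k mouse oligonucleotide chip (3D-Gene), read the intensity of each spot, subtracted background and scaled the median of detected spots to 25. The deposited intensity values of CTLA-4-Ig carry 6 decimals, and those of hIgG and vehicle are rounded to 1 decimal. Depth has no meaning for such arrays; the number of arrays, 1 per condition, limits the precision. Spots of positive controls (24 each) varied by 6.17% to 13.35% (CV) within an array.

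Of 23473 probes 20690 were named with 1 gene through the platform annotation and RefSeq names (20556 by gene identifier, 9 by accession, 125 by platform symbol), and 2783 are unnamed here. Log2 values of probes of 1 gene were averaged, with no pseudocount. Genes not detected on both arrays were left out of ratios, each ratio was set relative to the all-gene median, and bright genes had a mean signal of at least 25. Position centring subtracted the median of spots within 8 rows and columns whose mean signal was at least 10. No test was run, since a condition has 1 array, and a fold of 1.5 served as the threshold for counts. The genes named were the 15 highest and 15 lowest bright genes, the 6 highest and 6 lowest with a mean signal of 5 to 25, the 3 highest and lowest of a list, CTLA-4-Ig's ligands and their partners, the genes the study names for these cells, and the 10 bright genes each way on which CTLA-4-Ig stood farthest from both others. The same ranks after centring, and other list members, were named after their values were seen. Members and lists were chosen with earlier results of these data known. The scanner's background column followed the spots, so it was used only as a second reading and in 1 alternative. Python 3.11.15 (numpy 2.4.6, pandas 2.3.3, matplotlib 3.10.9) and R 4.3.3 with limma 3.58.1 (normexp, quantile, cyclic loess) were used, and the scripts were tested on simulated data. Alternatives changed the scaling, the background correction, the signal minimum, the probe rule, the control array and the fold.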

Additional observations from a re-analysis of the deposited data

How the results depend on the processing

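No paired analysis was possible because there is only 1 array for a condition, and no replicate could be left out. The counts of 17 bright genes higher and 35 lower at 1.5-fold stayed within 1.5 times under quantile scaling (21 and 27), cyclic loess (20 and 28), the 75th percentile (17 and 35), a joint median and the brightest probe of each gene. They moved to 29 and 54 with a signal of at least 10, 4 and 14 with at least 100, 406 and 282 with no minimum, and 26 and 22 with undetected probes kept at 1. With hIgG in place of vehicle they were 32 and 67, and against the mean of both controls 5 were higher. A lower fold of 5/4 gave 304 and 475, and a fold of 2 gave 1 and 0. Position centring, chosen after seeing the data, gave 7 and 12, and with a wider window 7 and 13. Normexp with the scanner's background column (offset 50) gave 481 and 450. That column follows the spot, at a median of 93.6% to 96.6% of it on bright spots. With normexp, the same offset and the blank spots as background, also chosen after seeing the data, the counts were 4 and 4. Both normexp settings included the offset and quantile scaling, and which step moved the counts was not tested.

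The median of the interferon-stimulated genes, -0.19, was -0.51 against hIgG and -0.36 against the mean of both controls, and 0.00084 under normexp with the background column. All other alternatives gave -0.25 to -0.13. Signs changed mostly for medians near 0: 108 of 767 list medians recomputed changed sign, 22 of them under that normexp and 19 against hIgG. So did 59 of 972 values of named genes. Of these changes, 6 were in lists with a median at least 0.1 from 0 and 23 in genes at least 1.5-fold apart. Of the other lists with a median at least 0.1 from 0, NF-kB subunits (0.040) and Toll-like receptors (0.0081) changed sign under that normexp, endothelial markers did with a signal of at least 10 (-0.010) and against hIgG (-0.018), and GABA receptors did with undetected probes kept at 1 (-0.060). Under that normexp these genes, all 1.5-fold or more apart, changed sign: Prkacb (-0.058), Acr (-0.010), Cdc45 (-0.11), D5Ertd615e (-0.061), Zfp933 (-0.010), Duox1 (-0.046), Plg (-0.014), Ctla4 (-0.0072), Trim32 (0.14), Gm20091 (1.27), Clec4a3 (0.16), Abcb4 (0.061), Rasl11a (0.087), Atm (0.066), Capn5 (0.062), Ly6g (0.078), AI854703 (0.15), Cxcl10 (0.0071), Mss51 (0.013) and Ubqln2 (0.032). Against hIgG, of genes that far apart Fat1 (0.20), Slc26a1 (0.28) and Ltb (0.041) changed sign. What made these signs change was not tested. Low signal limits the dim genes most: below a signal of 2 the ratio had a standard deviation of 0.51.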
